A study of Mus musculus with 2 samples.

Results

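The 6 Iroquois homeobox genes, Irx1 to Irx6, were followed in RNA of the mouse embryonic heart. They were found by matching the gene identifiers of the quantification tables, with the version removed, to the GENCODE M21 annotation, and all 6 matched, out of 43346 Ensembl gene rows. In the transcript tables they held 13 of 103639 rows. The RNA came from hearts of B6NCrl mice at embryonic day 12.5, male and female embryos pooled, with no treatment or engineered allele named in the labels. There was 1 group of 2 libraries, labelled as biological replicates and each made from 10 ng of RNA. The design therefore holds no contrast between conditions. No test across libraries was made, since an exact two-sided sign test over 2 libraries has a smallest possible p of 0.5. Whether the replicates came from separate litters is not stated, so the SD may be partly technical. Replicates 1 and 2 held 33480066 and 30665239 estimated reads on genes. Where no replicate is named, a level or fold is given as mean ± SD (n = 2).

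Iroquois genes encode transcription factors with a homeodomain of the TALE class, in which a three-residue loop is added to the classical fold. In mammals they lie in a pair of clusters that arose by duplication, so that Irx1 corresponds to Irx3, Irx2 to Irx5, and Irx4 to Irx6. In the developing mouse heart Irx4 marks ventricular muscle and holds down atrial genes there, and Irx3 is expressed in the trabeculae and needed for fast ventricular conduction. Irx5 is known from the endocardium and from the gradient of potassium current across the ventricular wall, and Irx1 and Irx2 from the muscle of the ventricular septum.

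The homeobox of each gene is shown because it is the conserved stretch of the family, in which reads of different members could be confused. Each is the run of 63 codons around the WF-N-R signature of the recognition helix, found by script in the leading coding transcript of GENCODE M21 (GRCm38, coding strand, 5′ to 3′). Capitals mark the bases that differ from the corresponding gene of the other cluster.
Irx1: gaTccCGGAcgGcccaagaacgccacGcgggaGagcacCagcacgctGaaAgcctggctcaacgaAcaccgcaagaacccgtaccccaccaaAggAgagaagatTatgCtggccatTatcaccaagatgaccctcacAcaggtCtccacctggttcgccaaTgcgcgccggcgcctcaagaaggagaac
Irx3: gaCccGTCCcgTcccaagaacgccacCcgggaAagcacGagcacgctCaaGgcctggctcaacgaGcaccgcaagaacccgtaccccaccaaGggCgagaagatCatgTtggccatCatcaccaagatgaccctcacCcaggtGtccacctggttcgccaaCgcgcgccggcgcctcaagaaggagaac
Irx2: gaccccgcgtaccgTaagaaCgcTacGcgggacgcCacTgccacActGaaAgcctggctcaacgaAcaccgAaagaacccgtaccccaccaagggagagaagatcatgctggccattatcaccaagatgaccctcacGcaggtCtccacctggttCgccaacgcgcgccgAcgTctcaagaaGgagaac
Irx5: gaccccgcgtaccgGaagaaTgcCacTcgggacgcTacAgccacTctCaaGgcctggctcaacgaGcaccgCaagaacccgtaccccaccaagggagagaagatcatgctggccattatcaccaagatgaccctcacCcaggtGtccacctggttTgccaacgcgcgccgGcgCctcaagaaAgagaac
Irx4: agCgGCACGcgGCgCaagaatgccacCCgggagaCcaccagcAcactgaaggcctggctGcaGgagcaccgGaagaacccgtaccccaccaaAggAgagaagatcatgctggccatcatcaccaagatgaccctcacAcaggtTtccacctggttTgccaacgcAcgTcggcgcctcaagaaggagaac
Irx6: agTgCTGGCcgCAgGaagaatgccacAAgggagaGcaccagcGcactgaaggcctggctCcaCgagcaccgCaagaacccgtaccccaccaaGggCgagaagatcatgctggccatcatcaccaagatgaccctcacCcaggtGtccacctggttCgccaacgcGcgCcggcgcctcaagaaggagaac
In the 189 bases shown, Irx2 and Irx5 differed at 17 positions, all of them silent, so the encoded homeodomains were identical. Irx1 and Irx3 differed at 20 bases and in 1 of the 63 encoded residues, and Irx4 and Irx6 at 23 bases and in 5 residues. Over the 3 corresponding pairs the homeobox identity was 87.83% to 91.01%, and over the other 12 pairs it was 83.07% to 88.89%. The longest run of identical bases between leading transcripts of any pair was 88 bases, between Irx3 and Irx6. The deposited posterior SD of the count was 0 reads for Irx1, Irx2, Irx4, Irx5 and Irx6 in both libraries, and 0.29 reads for Irx3. The read totals of the genes therefore hardly varied with how reads were allocated between genes. A level scaled by length also depends on how reads are divided between the transcripts of a gene.

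All 6 genes were detected, with at least 1 TPM (transcripts per 1000000, a level scaled by length) in both libraries. The same was true of 57.5% of 21461 nuclear protein-coding genes. The median level of the 6 genes was 12.7 TPM, against 3.64 TPM for all nuclear protein-coding genes and 18.9 TPM for the detected ones. Their levels spread over more than an order of magnitude, and together they came to 96.5 TPM in replicate 1 and 104 TPM in replicate 2. The RNA is of whole hearts, and in such samples fewer cells of a type and less RNA per cell cannot be told apart.

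Irx4, the ventricular member (ENSMUSG00000021604.11; mm10 chromosome 13, 73260479 to 73269608), stood at 51.1 TPM in replicate 1 and 53.7 TPM in replicate 2. It ranked 2692 of the 21461 protein-coding genes and supplied 52.4 ± 0.757% of the summed Irx TPM. The values rested on 2831 and 2691 estimated reads, which are 84.6 CPM (reads per 1000000 gene reads; exact binomial 95% interval 81.5 to 87.7) and 87.8 CPM (84.5 to 91.1). Such intervals cover counting error only. Irx3, the trabecular member (ENSMUSG00000031734.12; chromosome 8, 91798525 to 91802067), had 16.4 TPM in replicate 1 and 18.6 TPM in replicate 2, from 965 and 990 reads. Irx4 was 3.01 ± 0.163-fold above Irx3, and the order was the same in both libraries. Irx3 came next in the family and supplied 17.4 ± 0.692% of the summed TPM.

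Irx5 (ENSMUSG00000031737.10; chromosome 8, 92357625 to 92376286) had 11.9 TPM in replicate 1 and 13.6 TPM in replicate 2, from 647 and 667 reads. Irx2 (ENSMUSG00000001504.10; chromosome 13, 72628820 to 72634198) had 12.6 TPM in replicate 1 and 12.7 TPM in replicate 2, from 547 and 564 reads. Irx2 was the higher of these 2 genes in replicate 1 and Irx5 in replicate 2, so their gene levels overlapped and their order is not settled. The Irx2 level sums several transcripts, of which the full-length one was below Irx5 in both libraries. Its deposited intervals at the gene level were 10.9 to 14.9 TPM in replicate 1 and 11.6 to 14.97 TPM in replicate 2. Irx3 lay 1.37 ± 0.00431-fold above Irx5 and 1.38 ± 0.12-fold above Irx2. The second of these differences fell short of 3 standard errors when replicate 2 was left out, with a log2 ratio of 0.37. Irx6 (ENSMUSG00000031738.10; chromosome 8, 92674288 to 92680956) had 2.54 TPM in replicate 1 and 3.1 TPM in replicate 2, from 193 and 208 reads. Irx1 (ENSMUSG00000060969.8; chromosome 13, 71957921 to 71963723) had 2.07 TPM in replicate 1 and 2.02 TPM in replicate 2, from 111 and 98 reads. Irx6 was above 48% of protein-coding genes and Irx1 above 45.9%.

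**Figure D1:**
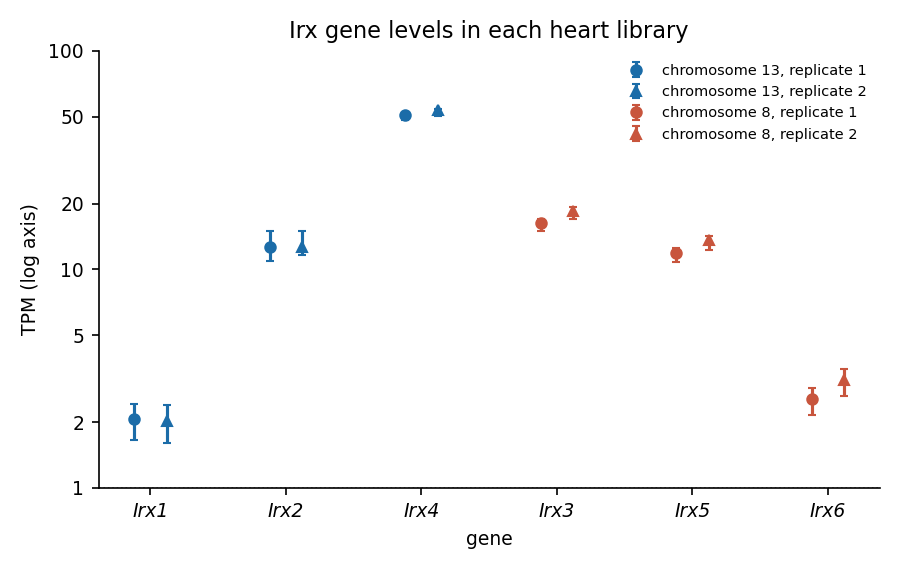
The plot gives the TPM (log axis) of each Irx gene in each library, with the deposited interval of the estimate, of unstated level, as bars; circles are replicate 1 and triangles replicate 2. Irx4 stands above 50 TPM, Irx3, Irx5 and Irx2 lie between 11.9 and 18.6 TPM, and Irx6 and Irx1 lie between 2.02 and 3.1 TPM.

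Of the 15 pairs of Irx genes, 13 had the same order in each library and a mean log2 ratio beyond 3 standard errors, the standard error coming from the typical spread between libraries of genes of like abundance. The pairs that did not were Irx5 with Irx2 and Irx6 with Irx1. In the second of these Irx6 was above Irx1 in both libraries, by 1.23-fold in replicate 1 and 1.53-fold in replicate 2, but the mean log2 ratio of 0.44 was less than 3 times its standard error of 0.19. By this rule the descending order of levels was Irx4, Irx3, Irx5 with Irx2, and Irx6 with Irx1. The order of Irx5 with Irx2 and of Irx6 with Irx1 was not settled. The standard error covers spread between libraries only, so a bias between genes that both libraries share is not in it. The share of pairs of other genes that would pass this rule was not computed. The count of 13 therefore does not set the Irx genes apart from other genes. The extremes, Irx4 and Irx1, lie at opposite ends of the same cluster, and Irx4 was 25.6 ± 1.34-fold above Irx1.

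The clusters were compared by the summed TPM of their 3 members within each library. The chromosome 13 cluster, Irx1, Irx2 and Irx4, came to 65.8 TPM in replicate 1 and 68.4 TPM in replicate 2. The chromosome 8 cluster, Irx3, Irx5 and Irx6, came to 30.8 TPM in replicate 1 and 35.2 TPM in replicate 2. The chromosome 13 cluster was thus 2.04 ± 0.138-fold above the chromosome 8 cluster and held 68.1% and 66% of the summed Irx TPM in replicates 1 and 2. On the log2(TPM + 0.1) scale the ratio was 1.02 ± 0.0971, with a standard error of 0.0522, and each library alone gave a positive ratio. This excess rested on Irx4. Without Irx4, which was an alternative chosen after seeing the data, the chromosome 13 sum of 14.7 TPM was below the chromosome 8 sum, with a log2 ratio of -1.16. Without the highest member of each cluster, Irx4 and Irx3, the remaining sums were 14.7 ± 0.00707 and 15.5 ± 1.57 TPM, with a log2 ratio of 0.02 in replicate 1 and -0.18 in replicate 2.

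**Figure D2:**
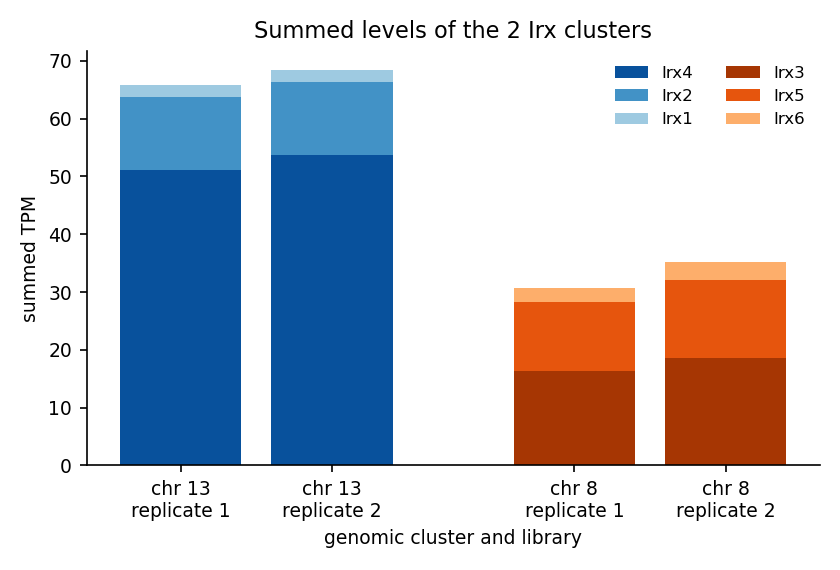
Bars give the summed TPM of the chromosome 13 cluster (left) and of the chromosome 8 cluster (right) in each library, divided by gene. The chromosome 13 bars reach 65.8 and 68.4 TPM, of which Irx4 takes 51.1 and 53.7 TPM, and the chromosome 8 bars reach 30.8 and 35.2 TPM.

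The corresponding genes of the clusters gave 3 different results. Irx4 was 18.7 ± 1.98-fold above Irx6, of the 3 pairs the one with the most unlike homeoboxes. Irx1 was below Irx3, at 0.118 ± 0.0125 of its level, a log2 ratio of -3.03 ± 0.152. Irx2 and Irx5, whose homeodomains are identical, were at a ratio of 0.997 ± 0.0898 and changed order between libraries. The Irx2 level sums several transcripts. Its full-length Irx2-201 had 8.15 and 9.55 TPM in replicates 1 and 2, below Irx5 at 11.9 and 13.6 TPM. The difference between the clusters was therefore carried by the Irx4 and Irx6 pair, and the Irx1 and Irx3 pair ran the other way.

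Position within the clusters was set beside the levels. The chromosome 13 cluster spans 1312 kb with Irx1, Irx2 and Irx4 in order of coordinate, and their mean levels along it were 2.045, 12.6 and 52.4 TPM. The chromosome 8 cluster spans 882 kb with Irx3, Irx5 and Irx6 in the corresponding order, and their mean levels were 17.45, 12.7 and 2.82 TPM. The highest member was thus the third gene on chromosome 13 and the first gene on chromosome 8. No other protein-coding gene among the analysed rows lies inside either cluster.

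The genes around and between the members were at unlike levels. Beyond Irx4, at a gap of 50230 bases, Ndufs6, which encodes a subunit of respiratory complex I, had 467 ± 10.8 TPM. On the far side of Irx1 the first analysed protein-coding gene, the metalloprotease gene Adamts16, had 0.12 ± 0.0141 TPM. Beside Irx3 lies Fto, an RNA demethylase gene whose introns are known to hold distant regulatory elements of Irx3, at 62.6 and 62.7 TPM in replicates 2 and 1. Beyond Irx6, the matrix protease gene Mmp2 had 84.2 ± 1.11 TPM. Inside the chromosome 8 cluster the long noncoding RNA gene Crnde (chromosome 8, 92326033 to 92356120) starts 1.5 kb from Irx5 and is read in the opposite direction. Crnde had 29.2 TPM in replicate 1 and 28.1 TPM in replicate 2, which was 2.27 ± 0.271-fold above Irx5 per length. In reads the order was the other way, with 430 and 389 reads for Crnde against 647 and 667 for Irx5, since Crnde had an effective length of 623 bases and Irx5 of 2304 bases. At Irx2 the divergent noncoding gene Gm20554, which starts 0.256 kb away, had 0.29 TPM in replicate 1 and 0.38 TPM in replicate 2, from 5 and 6 reads.

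Irx3os, an antisense gene, overlaps Irx3 and shares 124 exonic bases with it in GENCODE M21. It had 0.68 TPM in replicate 1 and 1.05 TPM in replicate 2, from 30.1 and 40.1 reads, and Irx3 was 20.9 ± 4.51-fold above it. The reads of Irx3 and Irx3os were not whole, but their sums were, at 995 and 1030 reads. Use of strand in the counting is a detail not given in the sources used here. How reads from the shared bases were divided is therefore not known. The deposited posterior SD of the Irx3 count, which covers allocation only, was 0.29 reads in each library. Irx3 had 32.1 and 24.7 times the reads of Irx3os in replicates 1 and 2. The other 6 noncoding or pseudogene rows inside the clusters were mostly near 0 TPM: Rpl9-ps4, a ribosomal pseudogene, had 2.16 ± 0.608 TPM, Gm28515 had 0.12 ± 0.0283 TPM, Gm21817 had 0.09 ± 0.0849 TPM, and Gm28511, Gm28516 and Gm24254 were listed at 0. A further 8 and 7 genes that GENCODE M21 places in the chromosome 13 and chromosome 8 clusters were not analysed here.

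**Figure D3:**
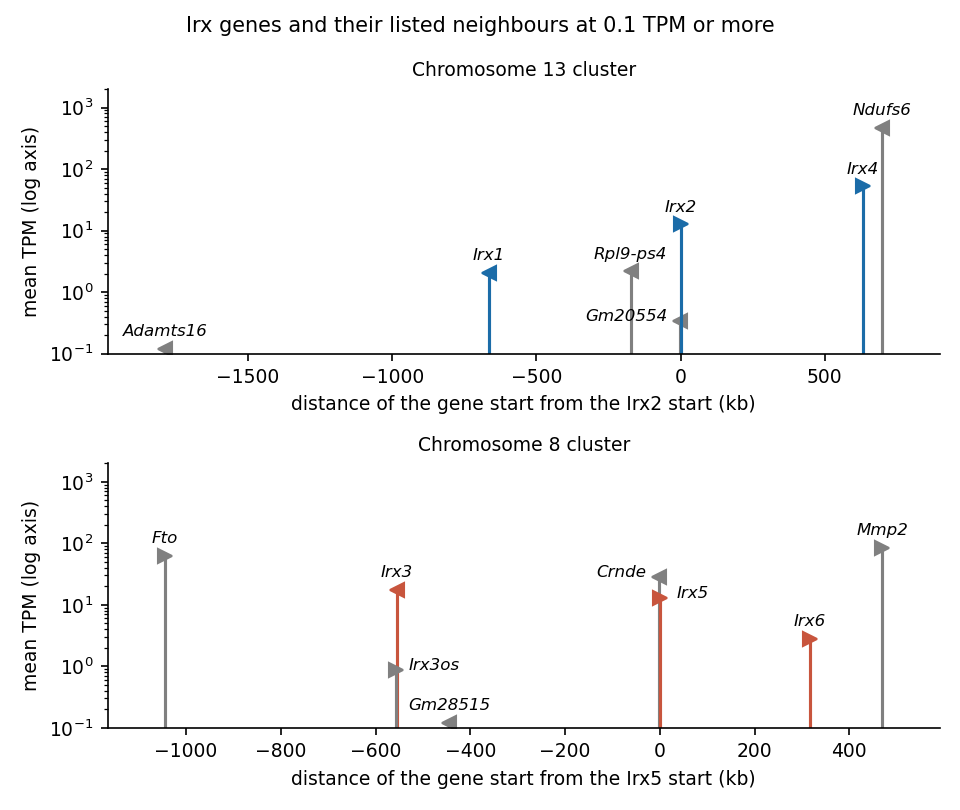
Mean TPM (log axis) of each gene is drawn at the distance of its start, in kb, from the start of Irx2 (top, chromosome 13) or Irx5 (bottom, chromosome 8); coloured marks are Irx genes, grey marks are neighbours at 0.1 TPM or more, and arrowheads give the strand. Along chromosome 13 the Irx levels run 2.045, 12.6 and 52.4 TPM, and along chromosome 8 they run 17.45, 12.7 and 2.82 TPM.

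Several members had more than 1 transcript in the tables. Irx4 was divided between Irx4-202, with 70.5% of its TPM in replicate 1 and 69.7% in replicate 2, and Irx4-201, with 29.5% and 30.3%. Both transcripts have 6 exons and the same coding sequence of 1545 bases, and they differ only in the first exon, which has 175 bases in Irx4-202 and 380 bases in Irx4-201. Their annotated starts are 18 bases apart, at 73260479 for Irx4-202 and 73260497 for Irx4-201. The division was estimated with a posterior SD of 84 and 95.5 reads, against 887 and 865 reads for Irx4-201. The promoter of Irx4 is shown because both starts fall in it (RefSeq start, chr13:73260247-73260546, GRCm38.p6, plus strand, 5′ to 3′). Capitals mark the bases from the RefSeq start onward, which is the start of Irx4-201.
Irx4 promoter: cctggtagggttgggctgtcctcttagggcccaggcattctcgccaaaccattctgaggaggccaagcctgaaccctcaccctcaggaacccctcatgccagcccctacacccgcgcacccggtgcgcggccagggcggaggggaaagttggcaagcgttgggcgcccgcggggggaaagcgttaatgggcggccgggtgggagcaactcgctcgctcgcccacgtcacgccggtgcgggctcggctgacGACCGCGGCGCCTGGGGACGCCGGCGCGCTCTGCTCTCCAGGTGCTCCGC
This window had 31 CpG dinucleotides, more than 89.4% of 32851 mouse promoter windows of the same length in RefSeq, whose median was 7. The RefSeq table also matched Irx2, with 25 CpG, and Irx3, with 14 CpG. The Irx3 window (chr8:91801605-91801904, minus strand) lies inside the first exon of both Irx3 transcripts of GENCODE M21. There Irx3-202 starts at 91802067 and Irx3-201 at 91801915, so this window holds no bases upstream of either start. On both strands of these 3 windows a T-box motif (AGGTGT, found in 13.7% of all windows), an NKX2-5 motif (TNAAGTG, 11.5%), a GATA motif (AGATAA, 11.2%), a TATA box (TATAAA, 13.6%) and an Iroquois motif (ACANNTGT, 7.38%) were not matched.

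Irx3 was assigned almost wholly to Irx3-202, with 97.2% of its TPM in replicate 1 and 100% in replicate 2. Irx3-201, with a GENCODE M21 coding sequence of 1566 bases against 1521 in Irx3-202, had 27.4 reads in replicate 1. It was listed at 0 in replicate 2. Its posterior SD was 19.7 and 13.25 reads, and its deposited intervals, 0.0914 to 1.32 and 1.13e-05 to 0.777 TPM, overlap. Irx3-202 was counted with 2597 bases but has 2748 in GENCODE M21, so its counted ends may differ from those given above. Irx6 was mostly Irx6-201, with 90.9% in replicate 1 and 75.8% in replicate 2. The other transcript, Irx6-202, starts 538 bases downstream and codes for 1 residue fewer; it had 0.23 TPM in replicate 1 and 0.75 TPM in replicate 2, with deposited intervals of 0.0332 to 0.596 and 0.363 to 1.21 TPM that overlap. Irx1 and Irx5 each had 1 transcript in the tables.

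Irx2 had 5 transcripts in the tables, and their shares differed between the libraries. The full-length Irx2-201 had 8.15 TPM in replicate 1 and 9.55 TPM in replicate 2, or 64.7% and 75.5% of the TPM of the gene. Irx2-202, a 927-base transcript that keeps an intron, had 1.47 and 2.32 TPM. Irx2-205, a 559-base transcript with 39 annotated coding bases, had 2.77 TPM in replicate 1 and 0.78 TPM in replicate 2, from 30.1 and 7.67 reads. Its deposited intervals, 0.901 to 4.82 and 0.0595 to 2.25 TPM, overlap. Irx2-203 had 0.21 TPM in replicate 1 and was listed at 0 in replicate 2, and Irx2-204 was listed at 0 in both. By reads rather than TPM, Irx2-201 held 88.9% in replicate 1 and 91.4% in replicate 2.

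**Figure D4:**
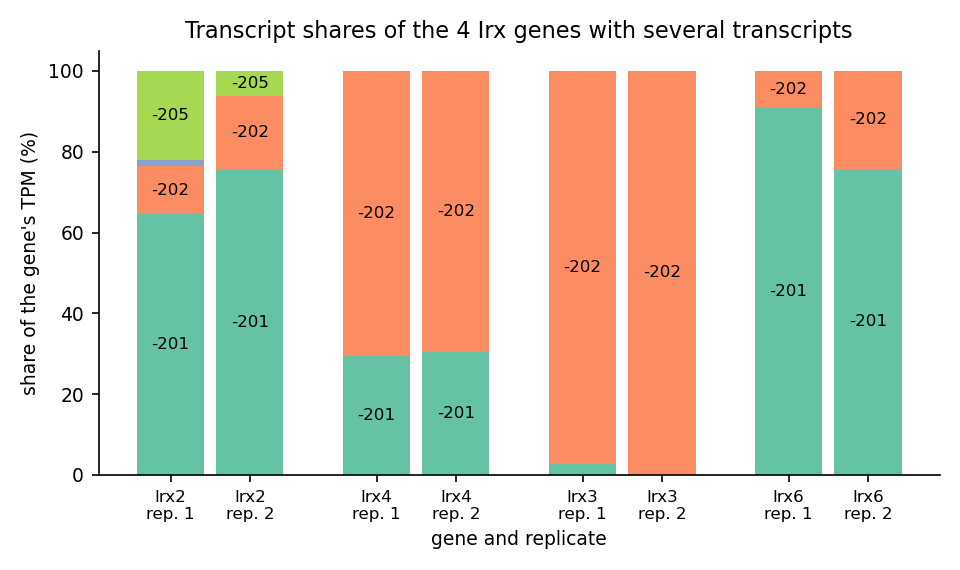
Stacked bars give the share of each gene's TPM (%) held by each of its transcripts in replicate 1 and replicate 2, for the 4 Irx genes with more than 1 transcript; the numbers in the bars are transcript names. The Irx4 shares are 70.5 and 69.7% for Irx4-202, and the Irx2-205 share is 22% in replicate 1 and 6.17% in replicate 2.

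The libraries were then compared gene by gene, as replicate 2 over replicate 1. All 3 chromosome 8 members had more TPM in replicate 2, with log2 ratios of 0.18 for Irx3, 0.19 for Irx5 and 0.28 for Irx6. On chromosome 13 the log2 ratios were 0.07 for Irx4, 0.0045 for Irx2 and -0.03 for Irx1. In all, 5 of 6 members were higher in replicate 2, against 56.6% of 13526 protein-coding genes with a mean of 20 reads or more. Irx2, counted among the 5, was nearly level and lay below the median log2 ratio of all genes, 0.02. The ratios of Irx3, Irx5 and Irx6 were beyond the robust SD of genes of like abundance, which was 0.11, 0.13 and 0.22. Among genes of like abundance, 19.4%, 21.3% and 26.2% differed by more between the libraries.

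In CPM, which is not scaled by length, the division between the clusters was less clear. Irx2 had 18.4 CPM in replicate 2 and 16.3 CPM in replicate 1, a log2 ratio of 0.17 (counting interval -0.0014 to 0.34). That equals the 0.17 of Irx5 (0.01 to 0.33) and is near the 0.16 of Irx3 (0.03 to 0.29), while Irx6 had 0.23 (-0.05 to 0.52), Irx4 0.05 (-0.02 to 0.13) and Irx1 -0.05 (-0.46 to 0.35). By this measure too 5 of 6 members were higher in replicate 2, against 50.8% of the protein-coding genes. The TPM of Irx2 was level between libraries because its reads were divided by an effective length of 2088 bases in replicate 2 and 1837 bases in replicate 1, which follows from the transcript shares given above.

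**Figure D5:**
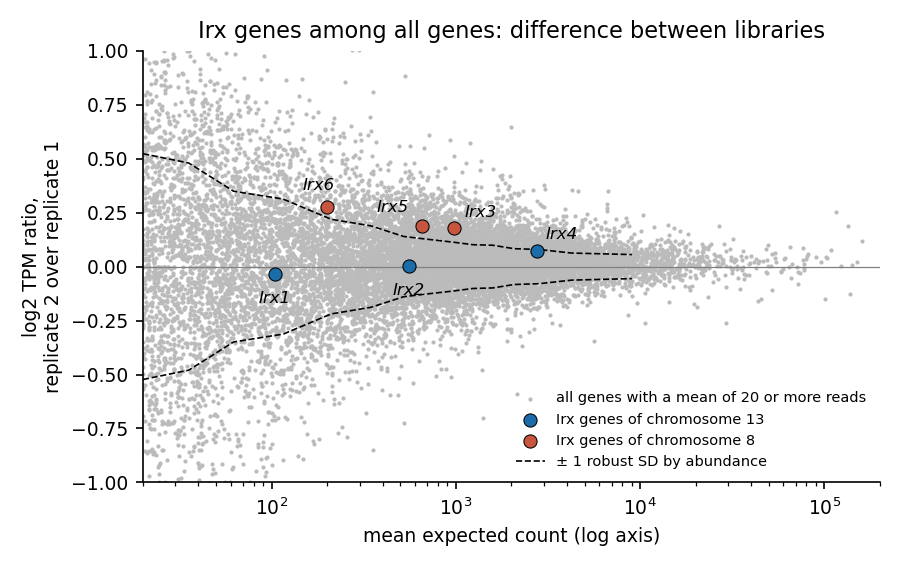
Each point is a gene with a mean of 20 reads or more, placed by its mean expected count (log axis) and by the log2 TPM ratio of replicate 2 over replicate 1; dashed lines are 1 robust SD by abundance, and the y axis is limited to 1 either way. The chromosome 8 members lie between 0.18 and 0.28, and the chromosome 13 members between -0.03 and 0.07.

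Markers of the cells that could hold Irx RNA were set beside these differences. For reading them, 56.6% of protein-coding genes were higher in replicate 2 in TPM, and the median log2 ratio of all genes was 0.02. The 5 working muscle cell markers were divided, with 3 higher in replicate 2 and log2 ratios from -0.13 for Myh6 to 0.14 for Ryr2. The 4 ventricular markers, Myl2, Myl3, Mpped2 and Hey2, were all higher in replicate 2, with log2 ratios of 0.04 to 0.15 and sums of 9310 TPM in replicate 2 and 8814 TPM in replicate 1. The 5 endocardial markers Npr3, Cdh5, Emcn, Pecam1 and Nfatc1 were also all higher in replicate 2, with log2 ratios of 0.03 to 0.10 and sums of 196 TPM in replicate 2 and 185 TPM in replicate 1. The 4 atrial markers, Myl7, Nr2f2, Sln and Stard10, were all lower in replicate 2, with log2 ratios of -0.49 to -0.11 and sums of 4555 TPM in replicate 2 and 4928 TPM in replicate 1. Of the 3 trabecular markers 2 were higher in replicate 2, as were 2 of the 3 cushion markers and 1 of the 4 epicardial markers. The part of these cell types in the Irx differences was not tested.

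Markers of other tissues were also read, since embryonic brain and lung are known to express Irx genes. For reading the counts, 57.5% of nuclear protein-coding genes were detected. Of 6 neural markers only Stmn2 was detected, at 2.46 ± 0.255 TPM; Sox1 was listed at 0 in both libraries, Sox2, Pax6, Elavl3 and Neurod1 were below 1 TPM, and the list summed to 3.11 TPM in replicate 2 and 3.5 TPM in replicate 1. Of 6 lung and foregut markers only Epcam was detected, at 2.11 ± 0.573 TPM, but the list summed to 5.34 TPM in replicate 2 and 2.43 TPM in replicate 1. In replicates 2 and 1, Nkx2-1 had 1.07 and 0.1 TPM, Sftpc 0.93 and 0 TPM, Shh 0.26 and 0.07 TPM, and Foxa1 0.21 and 0.11 TPM. Foxa2 went the other way, with 0.36 TPM in replicate 2 and 0.45 TPM in replicate 1. All 5 liver markers were detected and summed to 29.2 TPM in replicate 2 and 135 TPM in replicate 1. Of the 4 limb and skeletal muscle markers Tnnt3 and Myog were detected, at 6.32 ± 1.87 and 1.37 ± 0.523 TPM, and Myod1 and Myf5 were not. Markers of the labelled tissue were high, with all 5 muscle cell genes detected at a median of 3135 TPM, and all 3 cushion genes were detected. The part of these tissues in the Irx levels was not tested.

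The rest of the TALE class gave a frame for the Irx levels. Of 12 other TALE homeobox genes 11 passed the detection threshold, against 57.5% of nuclear protein-coding genes. The median level of the 12 was 18.8 TPM, against 12.7 TPM for the Irx genes. Meis1, a cofactor of Hox proteins that also restrains the muscle cell cycle in the mouse heart after birth, led at 64.5 ± 3.01 TPM, followed by Meis2 at 41.9 ± 1.57 TPM and the repressors Tgif2 at 35 ± 0.29 TPM and Tgif1 at 30.3 ± 1.53 TPM. Irx4 lay between Meis1 and Meis2. Mkx, a tendon factor and close relative of the Irx genes, was the member not detected, at 0.49 ± 0.0424 TPM.

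The list of 9 factors reported to act with or upstream of Irx genes was detected in full, against 57.5% of nuclear protein-coding genes. Its median level was 15.8 TPM. The cardiac factors Nkx2-5 (168 ± 5.9 TPM) and Gata4 (159 ± 5.73 TPM) stood above Irx4, as did Gata6 (61.7 ± 1.2 TPM), while Tbx5 had 28.9 ± 0.474 TPM. The lowest was the vitamin D receptor gene Vdr at 1.21 ± 0.12 TPM. Of 12 genes reported to respond to Irx genes in the heart, 11 were detected, against the same 57.5%. The median level of the 12 was 85.8 TPM. The highest were the natriuretic peptide gene Nppa (4744 ± 134 TPM), the myosin genes Myh7 (3135 ± 116 TPM) and Myh6 (1091 ± 67.8 TPM), and the connexin gene Gja1 (270 ± 7.34 TPM). The connexin gene Gja5, lowered in mouse hearts that lack Irx3, had 122 ± 0.905 TPM. Kcnd2, the potassium channel gene that Irx5 holds down in the ventricular wall of the mouse, had 1.8 ± 0.0283 TPM, and its partner Kcnip2 was not detected, at 0.38 ± 0.113 TPM. With 2 libraries of 1 group, no likeness of pattern between these genes and the Irx genes could be measured.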

How the data were processed

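Total RNA of embryonic mouse hearts was measured in 2 libraries. The assembly was mm10 and the gene annotation M4, per the file headers of the deposited notes. Names of aligner and quantifier: not given in the sources used here. Expected counts, as deposited, are estimated reads for each gene or transcript. TPM in the deposited tables is a length-scaled share over all listed features. FPKM, also deposited, divides by length and by library size. Percent values in the deposited transcript tables are each transcript's part of its gene. The deposited TPM intervals come without a stated level. Names and coordinates came from GENCODE M21, also GRCm38, and promoters from RefSeq (GRCm38.p6).

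The members and lists were chosen with earlier results of these data known. The genes named are the 6 members and each transcript with reads. The highest 4 and any undetected members of the TALE, upstream and responding gene lists are named too. So are every analysed gene inside a cluster and the first analysed protein-coding gene on each outer side. Vdr, Gja5, Kcnd2, Irx2-204 and the single markers named from the cell type lists fall outside that rule and were chosen after their values were seen. Detected means 1 TPM or more in both libraries. Ratios between genes are of TPM + 0.1 within a library, called when both libraries gave 1 sign and the mean was beyond 3 standard errors, from the robust SD between libraries in 20 abundance bins. The step was tested on simulated counts for 43346 genes, where 0.4% of equal pairs and 100% of pairs 2-fold apart were called. Both genes of a simulated pair had the same length and the same assumed spread, so these rates do not cover bias between unlike genes. Counts were rounded for edgeR 4.0.16 and DESeq2 1.42.0 (R 4.3.3), used for scaling only. Python 3.11.15 gave all else, with scipy 1.17.1, pandas 2.3.3, numpy 2.4.6 and matplotlib 3.10.9. An absent gene could have had up to 3 reads, or 0.0896 and 0.0978 CPM in replicates 1 and 2. Alternatives covered unit, denominator, length scaling, pseudocount, scaling factors, detection threshold and leaving out each library.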

Additional observations from a re-analysis of the deposited data

How the results depend on the processing

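The excess of the chromosome 13 cluster over the chromosome 8 cluster (log2 1.02) kept its direction and its call with FPKM, posterior mean TPM, TPM over nuclear protein-coding genes without globins, CPM, pseudocounts of 0.01 and 1, protein-coding transcripts only, and each library alone (0.96 to 1.09), and ranged over these from 0.90 in CPM to 1.09. Without the highest member of each cluster the excess was lost: the mean was -0.078, not called, with 0.02 in replicate 1 and -0.18 in replicate 2. Without Irx4, an alternative chosen after seeing the data, it was reversed, to -1.16. The number of Irx pairs called was 12 to 14, against 13, under the alternatives run. The ratio of Irx5 over Irx2, which was not called (0.0071), was reversed with posterior mean TPM (-0.075) and ranged from -0.084 to 0.098 with each library alone; in CPM it was 0.24, also not called. The call of Irx3 over Irx2 was lost in replicate 1 alone (0.37), and that of Irx6 over Irx1 was gained in CPM (0.92). CPM is not scaled by length, and there Irx3 over Irx2 was 0.81, against 0.46 in TPM. Irx2, higher in replicate 2 in TPM (0.0045), was lower there in FPKM (-0.015) and in TPM over nuclear protein-coding genes without globins (-0.0021). All 6 Irx genes stayed detected at 0.5 and 2 TPM and with a mean of 10 or more reads. No scaling moved the median of all genes by more than 0.02 on the log2 scale. No paired analysis was possible because there is 1 group. Depth limits Irx1 most, with 98 and 111 reads.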
